A study of Caenorhabditis elegans with 2 samples.

Results

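Alpha and beta tubulins were described here as 10 genes of the 13601 genes in a table of poly(A) tail lengths from Caenorhabditis elegans. They are 6 alpha tubulin genes (tba-1, tba-2, tba-4, tba-6, tba-9 and mec-12) and 4 beta tubulin genes (tbb-1, tbb-2, tbb-4 and mec-7), chosen by name. The animals were whole wild-type worms of the N2 Bristol strain, with no transgene or treatment, grown at 25 °C and collected at the mid-L4 stage, at the 29 h time point. Tails were measured by mTAIL-seq, which ligates an adapter to the 3′ end of polyadenylated RNA and reads the length of each tail from sequencing fluorescence; each tail read is called a tag. The 2 biological replicates stand in the table as 1 pool, so no value has a replicate error and no test was possible; intervals cover counting error only, and copies of 1 molecule, if present, would make them too narrow.

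Alpha and beta tubulin form the heterodimer from which microtubules are built. C. elegans has several isotypes of each. tba-1, tba-2, tbb-1 and tbb-2 are the general isotypes, used in many tissues and in the spindles of the germ line and early embryo. mec-12 (alpha) and mec-7 (beta) are known for the specialised microtubules of the touch receptor neurons, the cells that sense gentle touch. tba-6, tba-9 and tbb-4 are known from ciliated sensory neurons. These 5 genes are called the neuronal isotypes below, and tba-4, a further alpha tubulin gene, was placed in neither class. A poly(A) tail is added to an mRNA in the nucleus, is bound by poly(A)-binding proteins and shortens in the cytoplasm as the mRNA ages, although many abundant and stable mRNAs are known for short tails.

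The table held 17376490 tags, with tails called between 5 and 231 nt. Genes with at least 100 tags numbered 8803, with 80 nt as the middle of their median tails, while the median over all tags was 58 nt. As a check of the labelled whole animals, 15 of 17 marker genes of muscle, intestine, germ line, hypodermis and neurons were listed. The exceptions were osm-6 and che-2, markers of ciliated neurons, of which osm-5 was listed at 16 tags. The lowest number of tags listed for a gene was 10.

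The tubulin genes differed widely in tag number. Together they held 47839 tags, 0.275% of the table, and 94.9% of these belonged to the general isotypes. The most abundant gene was tbb-2 at 16829 tags, followed by tbb-1 at 12128 tags. tba-1 and tba-2 held almost equal numbers, 8242 and 8215 tags. Each tag comes from 1 RNA end, so these numbers were not divided by transcript length. The neuronal isotypes were far rarer. mec-12 held 1030 tags and mec-7, the partner it is known to pair with in touch receptor neurons, held 198 tags. tba-9 held 114, tbb-4 held 84 and tba-6 held 26 tags. tba-4, placed in neither class, held 973 tags, slightly fewer than mec-12. In whole animals, fewer cells of a type and less RNA per cell cannot be told apart. Tails at the upper limit of the calls, 231 nt, were few in number, from 0 tags in mec-7 and tba-9 to 19 tags in tba-1. These counts follow the tags of each gene. The 19 tags were among 8242 in tba-1, whereas tba-6 had 1 such tag among 26 and tbb-4 had 1 among 84. Of the 10 genes, 8 reached 100 tags; tbb-4 and tba-6 did not, and their values rest on few tails.

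The general isotypes had shorter tails than most genes, yet none of the 4 shared a length with another. tbb-1 had the shortest median, 49 nt (95% interval 48 to 49 nt), and tba-2 followed at 53 nt (52 to 54 nt). tbb-2 had a median of 59 nt (58 to 59 nt) and tba-1 of 67 nt (65 to 68 nt). The intervals of all 6 pairs of general isotypes were apart. The longest of the 4 was therefore an alpha tubulin and the shortest a beta tubulin, and neither the alpha pair nor the beta pair was alike.

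The alpha tubulin pair showed the wider gap in median tail, whereas the beta tubulin pair differed more in the share of tails under 30 nt. With nearly the same number of tags, tba-1 exceeded tba-2 by 14 nt in median tail. A tail drawn from tba-1 was longer than a tail drawn from tba-2 in 61.3% of all possible draws, counting ties as equal parts. The shift ran through the whole distribution. The 10th percentile was 33 nt in tba-1 and 28 nt in tba-2, the 25th was 47 and 35 nt, the 75th was 90 and 78 nt, and the 90th was 114 and 100 nt. Of the tba-1 tags, 6.64% had tails under 30 nt (95% Wilson interval 6.12 to 7.19%), against 12.98% of the tba-2 tags (12.3 to 13.7%). Tails over 100 nt made up 17.4% (16.6 to 18.2%) and 9.87% (9.25 to 10.5%).

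In the beta tubulin pair, tbb-2 exceeded tbb-1 by 10 nt in median, and the gap ran through the distribution. The 10th percentile was 25 nt in tbb-1 and 30 nt in tbb-2, the 25th was 32 and 40 nt, the 75th was 75 and 82 nt, and the 90th was 98 and 103 nt. The gap was thus widest near the middle. In tbb-1, 20.1% of tails were under 30 nt (19.3 to 20.8%), against 9.80% in tbb-2 (9.36 to 10.3%). Only 1.56% of the 8803 genes with at least 100 tags had as large a share of such short tails as tbb-1 or a larger one, and the median over these genes was 6.34%. Tails over 100 nt were 8.93% of tbb-1 tails (8.44 to 9.45%) and 11.05% of tbb-2 tails (10.6 to 11.5%). The cumulative curves lay furthest apart at 45 nt, by 15.2 percentage points. The general isotypes are close relatives of each other in sequence, so if the authors' counting moved tags between them, the values of single genes are uncertain; the labels do not say how shared reads were treated.

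**Figure D1:**
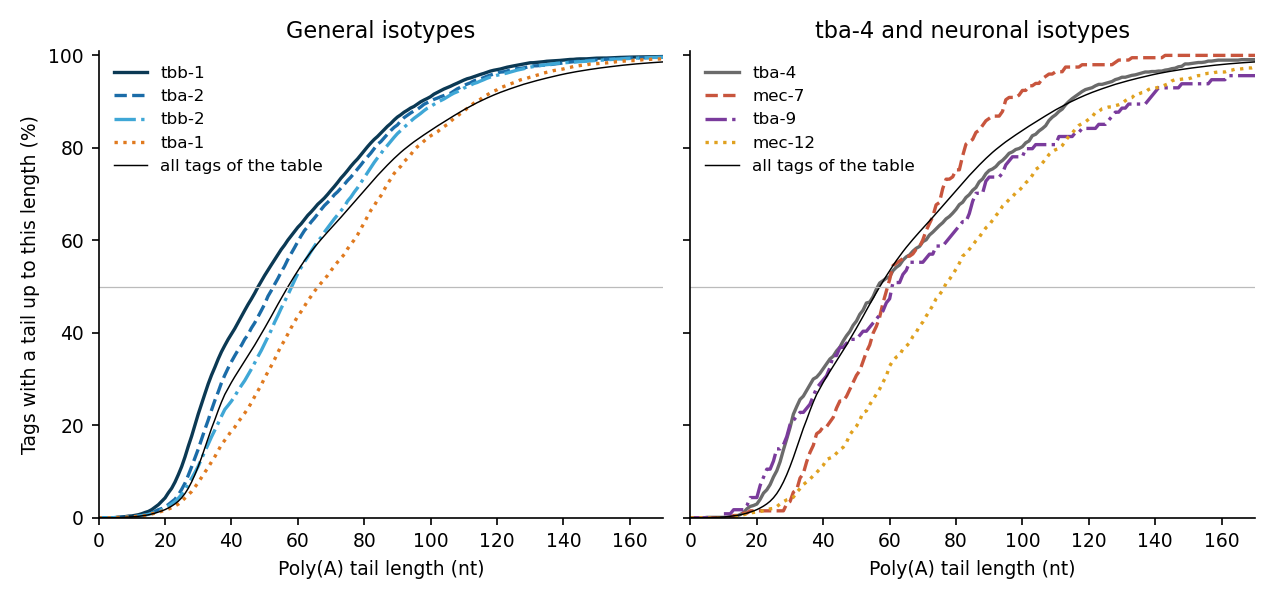
Cumulative tail length distributions, with tail length in nt on the horizontal axis and the percentage of a gene's tags with a tail up to that length on the vertical axis; the left panel holds the general isotypes, the right panel tba-4 and the neuronal isotypes with at least 100 tags, and the thin black line all tags of the table. The tba-1 curve lies to the right of that of tba-2 throughout the middle of the range, tbb-1 and tbb-2 are furthest apart at 45 nt, and mec-7 ends at 143 nt.

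The touch receptor isotypes differed from each other, though in whole animals their tags need not come from the same cells. mec-12 had a median of 77 nt (74 to 80 nt) and mec-7 of 60 nt (57 to 68 nt), and these intervals did not overlap. Both had few tails under 30 nt, 3.88% in mec-12 (2.86 to 5.24%) and 3.03% in mec-7 (1.40 to 6.45%). These were the lowest shares among the 10 tubulin genes. At the long end they parted. Tails over 100 nt made up 28.4% of mec-12 tags (25.8 to 31.3%), but 7.58% of mec-7 tags (4.64 to 12.1%), and the longest of the 198 mec-7 tails was 143 nt. mec-7 thus had the narrowest distribution of the 10 genes, with an SD over tags of 24.1 nt and a middle 50% from 45 to 80 nt; the SD of mec-12 was 37.3 nt and the median SD over genes was 39.7 nt.

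The ciliary isotypes could be placed only coarsely. tba-9 had a median of 61 nt (54 to 77 nt), and tbb-4 of 77.5 nt (67 to 90 nt). The median over the 26 tails of tba-6 was 86 nt (41 to 104 nt), an interval that spans most of the family's range. In tba-9, 17.5% of tails were under 30 nt (11.7 to 25.6%) and 21.9% over 100 nt (15.3 to 30.4%), where the median share over 100 nt over genes was 31.8%. Its middle 50% ran from 37 to 95 nt and its SD over tags was 44.2 nt.

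tba-4 had a middle 50% about as wide as that of tba-9, but a smaller SD over tags, 37.2 nt, close to that of mec-12. Its median was 57 nt (55 to 61 nt), between those of tba-2 and tbb-2. Of its 973 tails, 17.1% were under 30 nt (14.8 to 19.6%), close to the share of tbb-1, and 19.7% were over 100 nt (17.4 to 22.4%), close to the share of tba-1. The medians of tba-4 and tbb-2, whose intervals overlapped, thus went with different shapes: the middle 50% ran from 33 to 90 nt in tba-4 and from 40 to 82 nt in tbb-2.

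**Figure D2:**
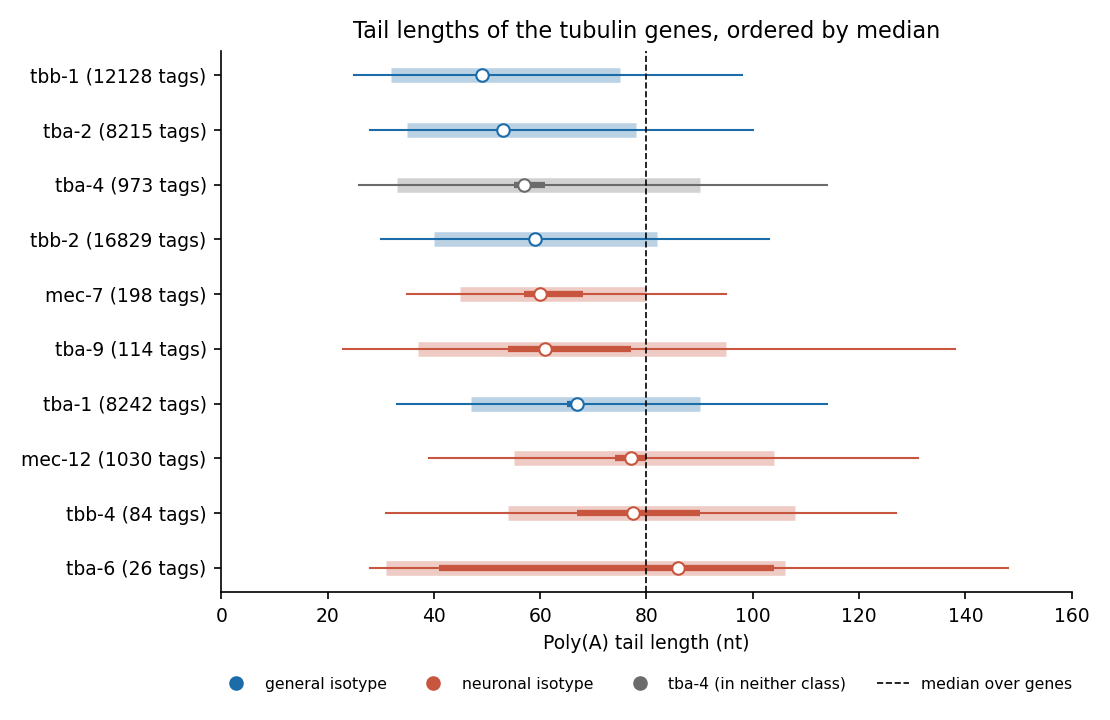
Tail lengths in nt of the 10 tubulin genes on the horizontal axis, ordered by median from the top. Open circles are medians, thick bars their 95% intervals, pale bars the middle 50% of tags, thin lines the 10th to 90th percentiles, and the dashed line the median over genes at 80 nt; the 4 general isotypes have medians of 49 to 67 nt and narrow intervals, and the 5 neuronal isotypes medians of 60 to 86 nt.

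In order of median, the genes ran tbb-1, tba-2, tba-4, tbb-2, mec-7, tba-9, tba-1, mec-12, tbb-4 and tba-6. Of the 9 neighbouring pairs in that order, 3 had intervals that were apart: tbb-1 and tba-2, tba-2 and tba-4, and tba-1 and mec-12. Over all 45 pairs, 22 had intervals that were apart. The stretch from tba-4 to tba-9 could not be ordered at this depth, nor could mec-12, tbb-4 and tba-6. These stretches were not cleanly separated either. The interval of tba-6 overlapped those of all other members, so its place in the order is not resolved. That of tba-1 also overlapped those of mec-7, tba-9 and tbb-4. The interval of tbb-4 overlapped those of mec-7 and tba-9, and that of mec-12 overlapped that of tba-9.

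Taken as classes, the neuronal isotypes had the higher median, but not gene by gene. Over gene medians, the middle value was 56 nt in the 4 general isotypes (range 49 to 67 nt) and 77 nt in the 5 neuronal isotypes (60 to 86 nt), a difference of 21 nt. Formed from the members' interval limits, the difference ran from 0.5 to 25 nt. Restricted to members with at least 100 tags, 3 neuronal isotypes remained, with a median of 61 nt, and the difference was 5 nt; this restriction was chosen after the data were seen. The ranges of the classes overlapped, since mec-7 and tba-9 lay below tba-1. In 18 of 20 pairs of 1 neuronal and 1 general gene the neuronal gene had the longer median, and in 10 of these the intervals were apart. The exceptions were mec-7 and tba-9 against tba-1, with overlapping intervals. The pairs share genes and include tbb-4 and tba-6, each under 100 tags. No matching count over all genes was made, and the classes also differ in tag number, as described below. Summed over tags, the neuronal isotypes had a median of 74 nt (72 to 76 nt) and the general isotypes of 57 nt (56 to 57 nt), but the neuronal sum of 1452 tags was mostly mec-12. Short tails, under 30 nt, were 12.5% of general tags (12.2 to 12.8%) and 5.44% of neuronal tags (4.39 to 6.73%), and mec-12 again held most of the latter tags. With each gene counted once, the median share was 11.4% in the general and 9.52% in the neuronal isotypes, and the tags of tba-6, tba-9 and tbb-4 together had 14.7% (10.7 to 19.97%).

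Against all genes, the tubulins lay on the short side. Of the 8 with at least 100 tags, 7 had an interval wholly below the median over genes, 80 nt, and 0 above it; over all 8803 genes 36.7% were below and 35% above. All 4 general isotypes, tba-4, mec-7 and tba-9 were below, and the interval of mec-12 just reached 80 nt. A median at least 20 nt below, with the interval on the same side, was found in 5 of the 8, against 11.8% of genes, and a median at least 20 nt above in 0, against 12.6%. Those at least 20 nt below were tbb-1, tba-2, tba-4, tbb-2 and mec-7; mec-7 lay exactly at the limit and tba-9, at 61 nt, just outside it. With all tags weighted equally the reference is 58 nt, and then tbb-1 and tba-2 were below, and tba-1 and mec-12 above, 2 and 2 of the 8, while of all genes 5.69% were below and 84.97% above.

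Tag number moves with tail length across the table and also separates the classes. Each gene was therefore set beside its own group among 10 groups of equal size by tags. The 4 general isotypes fall in the most abundant of these groups, which is wide, from 2478 to 322583 tags, and so matches abundance only loosely. Its median over genes was 67 nt, and in it 79.3% of genes were below 80 nt by the same measure and 32.3% at least 20 nt below. tba-1 was at the median of that group, tbb-2 at its 28.0th percentile, tba-2 at its 17.4th and tbb-1 at its 12.4th. The 3 neuronal isotypes with at least 100 tags fall in groups with longer tails. mec-7 was 24 nt below the median of its group, 84 nt, at the 8.40th percentile, and tba-9 was 25 nt below that of its own, 86 nt, at the 8.17th. tba-4 was 21 nt below the 78 nt of its group, at the 6.59th percentile, while mec-12, in the same group as tba-4, was 1 nt below, at the 45.9th. Measured from the medians of the tag groups, the order of the class values turned, though not gene by gene. The median distance from the group's median was -11 nt over the 4 general isotypes and -24 nt over the 3 neuronal ones with at least 100 tags, a difference of -13 nt. The neuronal value rests on mec-7 and tba-9, with 198 and 114 tags, while mec-12 lay nearer its group's median than tbb-2, tba-2 and tbb-1 did. How far abundance accounts for the difference between the classes was not tested.

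**Figure D3:**
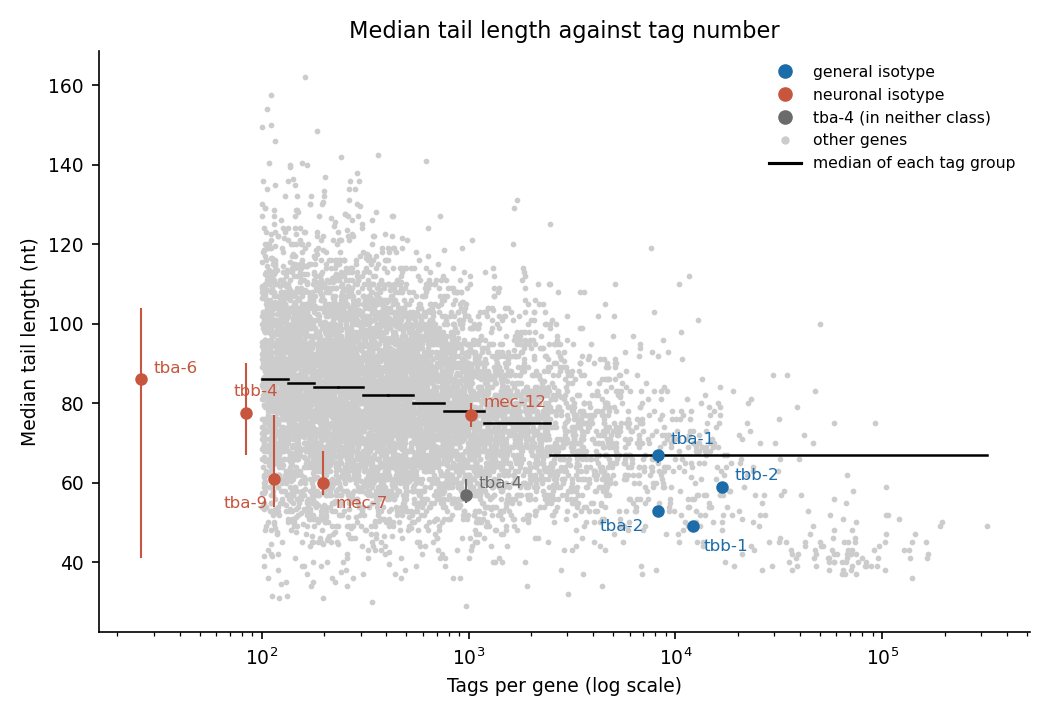
Median tail length in nt against tags per gene on a log axis, with 1 grey point for each gene with at least 100 tags, the tubulin genes in colour with 95% intervals, and black lines for the median over genes in each of 10 tag groups. tba-1 and mec-12 lie on or next to the line of their group, whereas tba-4, mec-7 and tba-9 lie 21 to 25 nt below theirs.

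Other tubulin genes in the table were few and rare. tba-7, an alpha tubulin gene with 139 tags, had a median of 77 nt (65 to 89 nt). The gamma tubulin gene tbg-1, whose product nucleates microtubules, had 569 tags and a median of 71 nt (65 to 76 nt). Below 100 tags, the medians were 57 nt in tbb-6 (51 tags), 64 nt in the alpha tubulin gene tba-8 (17 tags) and 66 nt in ben-1 (31 tags), a beta tubulin gene known as the target of benzimidazole drugs. tba-5 was also sought, and no listed gene matched that name.

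Genes that work on tubulin were grouped by the known function of their products. Genes counted as below or above have intervals wholly on that side of 80 nt, as 36.7% and 35% of all genes with at least 100 tags do. The folding list holds the CCT chaperonin, prefoldin and the tubulin cofactors. Its 18 genes with at least 100 tags had a median of 67.5 nt, with 15 below and 1 above. Of the 18, 13 were in the 3 most abundant tag groups, in which 45%, 57.2% and 79.3% of all genes were below. The chaperonin gene cct-5, with 12012 tags nearly as abundant as tbb-1, had a median of 64 nt (64 to 65 nt). The range ran from the prefoldin gene pfd-5 at 51 nt to the cofactor C gene tbcc-1 at 96 nt. Of 8 genes for enzymes that modify tubulin, 5 were above and 2 below, and their median was 86.5 nt. ttll-9, of the tubulin tyrosine ligase-like family, which includes enzymes that add glutamates to tubulin, was the most abundant at 870 tags and 92 nt, and the family marked the range, from ttll-5 at 66.5 nt to ttll-15 at 114 nt. mec-17, which acetylates alpha tubulin in touch receptor neurons, had a median of 86 nt (82 to 91 nt).

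Genes for proteins that bind microtubules included both long and short tails, with more genes above than below. Of 17 with at least 100 tags, 8 were above and 3 below, beside the 35% and 36.7% of all genes, and the median was 86 nt. Among these 17, the centrosomal gene tac-1 was the most abundant, at 60 nt, the katanin subunit gene mei-2 the shortest, at 55 nt, and elp-1, of the EMAP family, the longest, at 111 nt; below 100 tags, cls-3 (91 tags) had a median of 149 nt and ebp-1 (26 tags) of 53.5 nt. The 6 genes of microtubule nucleation had a median of 80.5 nt, with 2 below and 1 above, from tbg-1 at 71 nt to mzt-1 at 86 nt; the centrosome scaffold gene spd-5, the most abundant, had a median of 73 nt. Other genes listed for touch reception gave a setting for mec-7 and mec-12, although in whole animals the cells behind their tags are not known. Of the 12, 4 had at least 100 tags, from mec-15, which encodes an F-box protein, at 63.5 nt to mec-2, a stomatin-like gene of the touch channel complex, at 86.5 nt, with mec-17 between them. In median, mec-7 lay below these 4 genes and mec-12 among them. The interval of mec-7 overlapped those of mec-15 (56 to 72 nt) and of the collagen-like gene mec-5 (65 to 74 nt), so the order of these 3 is not resolved.

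**Figure D4:**
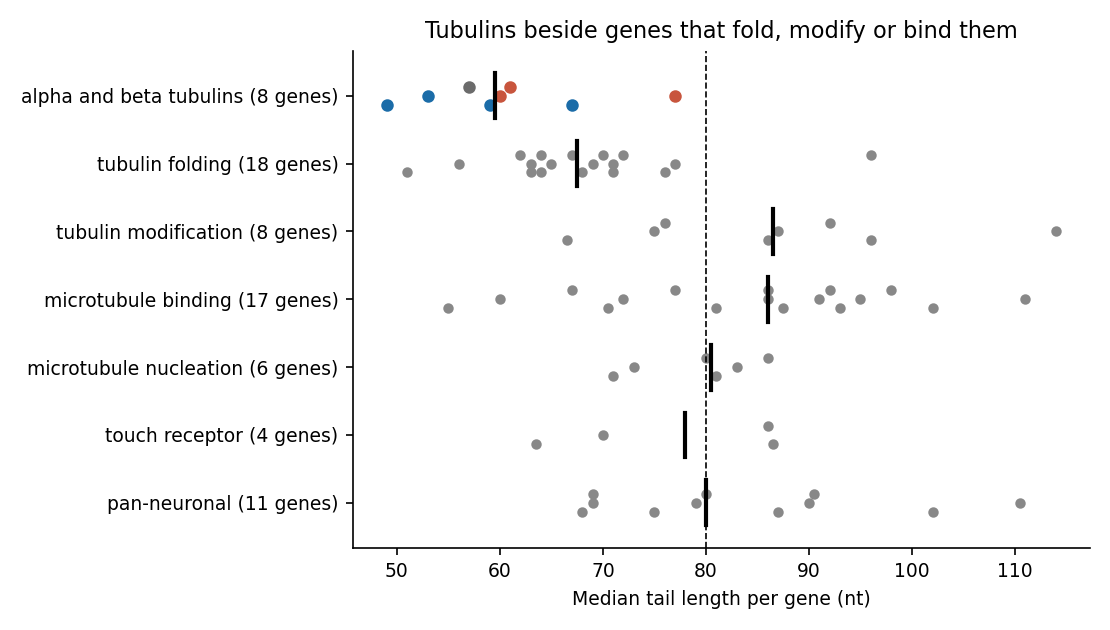
Median tail length in nt of each gene with at least 100 tags, by list; black bars are list medians and the dashed line is the median over genes, 80 nt. In the top line general isotypes are blue, neuronal isotypes red and tba-4 grey; the 8 tubulin genes, with a median of 59.5 nt, and the 18 folding genes, with 67.5 nt, lie mostly left of the line.

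The genes most like tbb-2 and mec-7 were sought among 3725 other genes with at least 500 tags, by the largest difference between the cumulative curves. Nearest to tbb-2 were ndua-1 (1.54 percentage points), the cyclophilin gene cyn-5 (1.61 points) and the collagen gene col-93 (2.33 points), with medians of 58 to 60 nt. Nearest to mec-7 were txt-17 (3.83 points), the collagen gene col-147 (4.22 points) and the proteasome subunit gene pas-2 (4.63 points), with medians of 60 to 62 nt. The curve of mec-7 rests on 198 tags, fewer than the 500 asked of the other genes. The counting error of these differences was not computed, so the order of genes near mec-7 is not resolved. The measure compares pooled distributions of 1 stage and describes likeness of tails only.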

How the data were processed

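The deposited table lists genes and pools 2 replicates of whole L4 animals. Its tag counts are, per the file headers and values, the number of tail calls per gene, not normalized, and beside them stand the single tail lengths of the gene, in nt, and their summaries. Tails were called by the authors with tailseeker2, per the labels' protocols; STAR and bedtools are named in the submitters' processing notes, and no source used here gives their roles, versions, the genome build or whether tags were collapsed to molecules. Recomputed summaries differed in 0 of 13601 genes. Members were matched on the table's alias; other list genes on the alias or, failing that, the symbol in NCBI's WBcel235 gene table (13549 genes matched).

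Each gene's median has an exact order-statistic 95% interval, based on the binomial distribution, and shares have 95% Wilson intervals, both over the gene's own tags (Python 3.11.15, NumPy 2.4.6, SciPy 1.17.1). The interval and the calls were checked on simulated tags, drawn independently from the pooled tail lengths without the shortest and longest ones. Copied molecules and replicate error were outside that check. Genes with at least 100 tags set the reference of 80 nt. Genes named were all members, all other tubulins, in each list the most abundant, shortest and longest gene, and the 3 genes most like tbb-2 and mec-7; mec-17 in the modification list, cls-3, ebp-1, mec-5, ric-4, sng-1, rab-3, unc-18 and snt-1 are named beyond that rule, after their values were seen. Members and lists were chosen with earlier results of these data known. Alternatives changed the tag minimum, the summary, the tails used, the reference and the class members.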

Additional observations from a re-analysis of the deposited data

How the results depend on the processing

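No paired analysis was possible because the table pools both replicates, and for the same reason leaving out a replicate was not run. With mean tails the general class was at 61.5 nt and the neuronal class at 81.1 nt, and with geometric means the general class was at 54.7 nt; with tba-4 counted as general it was at 57 nt. Leaving out 1 gene at a time, the general class ranged from 53 to 59 nt, the neuronal class from 69 to 77.25 nt and the difference from 13 to 24 nt; 13 nt was reached without tba-6 or without tbb-4, the 2 genes under 100 tags. With tba-4 counted as neuronal the difference was also 13 nt. Formed from interval limits, the difference ran from -2 to 25 nt with tba-4 counted as general and from -0.5 to 23.5 nt with it counted as neuronal. The lower end was also below 0 without tba-2, tbb-1, mec-12 or tbb-4. Such ranges combine limits of single genes and serve as no test of the classes. Measured from each gene's tag group, a choice made after seeing the data, the difference reversed to -13 nt, on 3 neuronal genes in place of 5. The cause was not tested. Against the median over all tags, 58 nt, 2 of 8 genes were below and 2 above, beside 5.69% and 84.97% of all genes. With a minimum of 400 tags 5 of 6 were below, and with a minimum of 20 tags or none 8 of 10. In the other settings 7 or 8 of 8 were below. In these settings 0 were above, while of all genes 31.6 to 39.9% were below and 26.6 to 40.7% above. Without tails at the longest called length, 10 of 10 gene medians stayed within their interval, and without tails under 20 nt 9 of 10 did. With mean tails 4 of 10 gene values lay within the interval of the median and 6 lay above it. With geometric means 7 of 10 lay within it and 3 below.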

Other observations

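Neuronal genes other than tubulins ranged widely in tail length. Of 14 broadly neuronal genes, 13 were listed and 11 had at least 100 tags, whose median was 80 nt; 3 were below the median over genes and 4 above, near the 36.7% and 35% of all genes. The synaptobrevin gene snb-1, the most abundant at 2079 tags, had a median of 69 nt (67 to 71 nt), unc-119 of 68 nt and unc-13, which primes synaptic vesicles, of 110.5 nt (99 to 120 nt). The medians of mec-7 and tba-9 were lower than those of these 11 genes, but the intervals of both overlapped those of unc-119, snb-1, ric-4 and sng-1, and that of tba-9 also those of rab-3, unc-18 and snt-1, so this order is not resolved. mec-12 stood within their range.

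Genes of the ciliary machinery were at the edge of what the table holds. Of 37, 30 were listed, at a median of 17.5 tags, and 2 had at least 100 tags: klp-11, a kinesin-II subunit gene, at 105 nt (94 to 111 nt), and dyf-6 at 81 nt (74 to 93 nt). The ciliary tubulins tba-9, with 114 tags, and tbb-4, with 84, held more tags than most of these genes.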
